A study of Mus musculus with 4 samples.

Results

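The genes described here are 10 components of insulin-like growth factor (IGF) signaling, chosen by symbol: the ligand Igf1, the receptors Igf1r and Insr, the adaptors Irs1 and Irs2, and the binding proteins Igfbp2, Igfbp3, Igfbp4, Igfbp5 and Igfbp7. All 10 were found among the 52636 gene identifiers of the count tables, and all 10 passed the filter on low counts, which left 18172 genes. The data are RNA-seq read counts from mouse kidney cells isolated by flow sorting, 2 libraries labelled Brg1-cKO and 2 labelled control, each made from 3000 cells. Brg1, the protein of Smarca4, is the ATPase of SWI/SNF chromatin remodeling complexes, and cKO by usual usage means a conditional knockout. The title of the study names Eya1, Six2 and the nephron progenitor pool. The deleting allele, the Cre driver, the sorting marker, and the age and sex of the animals are, for either group, not given in the sources used here. No label ties the libraries of a group to separate animals, so every p-value below rests on differences among these libraries, some or all of which may be technical.

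IGF1 and IGF2 are secreted growth factors that signal through IGF1R and, with lower affinity, the insulin receptor, both receptor tyrosine kinases. The activated receptors phosphorylate the insulin receptor substrates IRS1 and IRS2, which recruit PI3 kinase and so activate Akt and mTOR. IGF binding proteins (IGFBPs) hold the ligands outside the cell, prolong their half-life and limit or deliver them to the receptors, and proteases release the ligands again. In the embryonic kidney the pathway supports growth, with Igf2 the abundant ligand.

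The groups differed in depth, in reads outside counted genes and in marker levels. Which of these differences follow from the genotype was not tested. Counts on genes were 14645665 and 10922272 in Brg1-cKO against 35411905 and 37999342 in control, and reads with a unique alignment outside every counted gene were 49.5% and 57.2% of uniquely aligned reads in Brg1-cKO against 16.5% and 15.4% in control. Levels are given as CPM, the usual depth-corrected read count, scaled between libraries by the trimmed mean of M values. Smarca4 stood at 760.1 and 691 CPM in Brg1-cKO, compared with 898 and 937 CPM in control, and those counts can include exons outside the deleted part. Xist was at 836 and 1205 CPM in Brg1-cKO, compared with 244 and 217 CPM in control, and the Y-linked Ddx3y at 1.05 and 3.27 CPM against 76.0 and 78.8 CPM, so the sex of the cells and the genotype cannot be told apart. All 10 nephron progenitor markers had counts in every group, with a summed level of 1606 and 1392 CPM in Brg1-cKO, compared with 1394 and 1357 CPM in control. By fitted level, 6 of them were higher in Brg1-cKO and 4 lower. Six2 was among the lower ones, at 234 and 126 CPM in Brg1-cKO, compared with 242 and 237 CPM in control. Sall1, the largest part of the sum, was at 548 and 535 CPM against 439 and 441 CPM. Cited1 was at 43.0 and 5.98 CPM in Brg1-cKO, compared with 19.9 and 17.2 CPM in control. Meox1 was at 28.9 and 6.17 CPM against 38.7 and 33.3 CPM. The summed level of 12 podocyte markers was 4916 and 4605 CPM in Brg1-cKO, compared with 1943 and 1973 CPM in control. That of 12 stromal markers was 1433 and 1411 CPM against 2952 and 2930.2 CPM, and that of 10 endothelial markers 394 and 257 CPM against 722 and 733 CPM. Ureteric bud markers summed to 149 and 76.8 CPM in Brg1-cKO, compared with 222 and 230.3 CPM in control. Of the 9 tested, 8 had a lower fitted level, and Calb1, Wnt9b and Wnt7b were at 0 counts in both Brg1-cKO libraries. Hoxb7 had a higher fitted level, at 98.2 and 27.0 CPM in Brg1-cKO, compared with 23.5 and 29.4 CPM in control. It was the largest part of the sum in Brg1-cKO replicate 1. Immune markers summed to 58.4 and 57.3 CPM in Brg1-cKO, compared with 148 and 144 CPM in control.

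Igfbp7 was the only one of the 10 genes that was higher in Brg1-cKO without overlap between the groups, by about 4.47 times on the mean CPM. Igfbp2, Igfbp3, Igfbp4 and Igfbp5, the other binding proteins, stood below both controls in each Brg1-cKO library, as did Igf1 and Insr. Igf1r, Irs1 and Irs2 overlapped between the groups. Members with groups that did not overlap thus numbered 1 higher and 6 lower of 10, where 17.5% of all tested genes were higher and 34.5% lower in this way. Among the 10274 tested genes that averaged at least 10 CPM, as all members did, these shares were 23.6% and 25.5%.

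**Figure D1:**
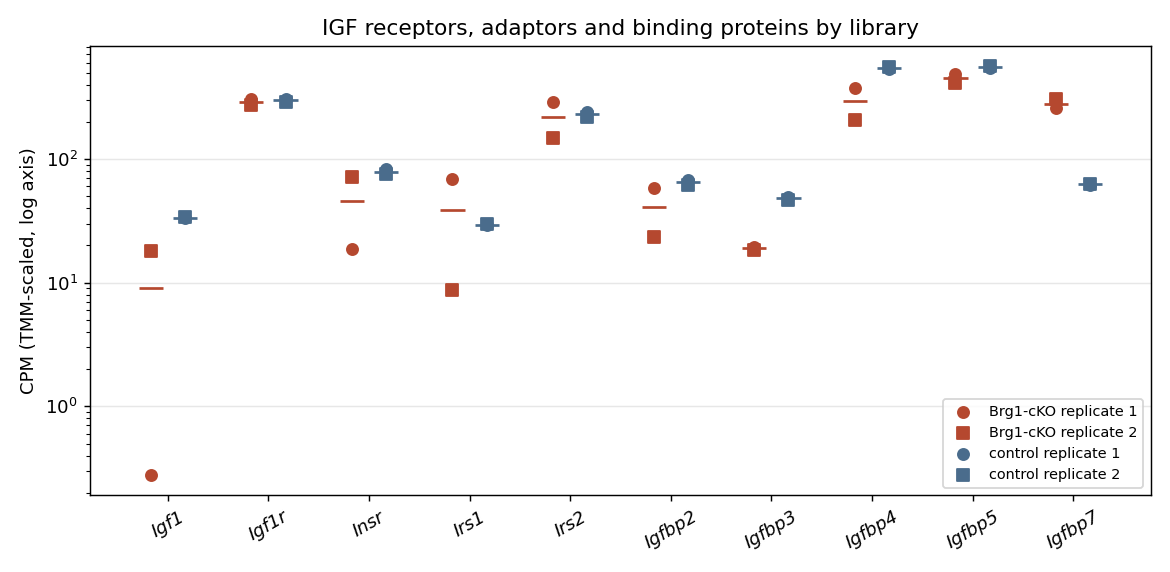
Level of each gene in CPM (log axis) in the 2 Brg1-cKO libraries, left of each pair, and the 2 control libraries, right, with a bar at the group mean. Igfbp7 is higher in Brg1-cKO at 256 and 303 CPM against 61.9 and 63.1 CPM in control, and the points of Igf1, Insr, Irs1 and Igfbp2 lie far apart within Brg1-cKO.

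The test was edgeR's quasi-likelihood F test on the whole table with Benjamini-Hochberg adjustment, at an adjusted p of 0.05. It called 0 of the 10 members, as it called 0% of all tested genes, with 0.166 as the smallest adjusted p. By the unadjusted p, 1 member was higher and 1 lower at 0.05: Igfbp7 and Igfbp3. This compares with 5.44% of all tested genes higher and 12.9% lower, and 7.31% and 5.17% of the genes averaging at least 10 CPM. The median log2 fold change, always Brg1-cKO over control, was -0.47 over the 10 members and -0.06 over all tested genes. An exact permutation test of a single gene in 2 against 2 libraries cannot go below a two-sided p of 0.333.

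**Figure D2:**
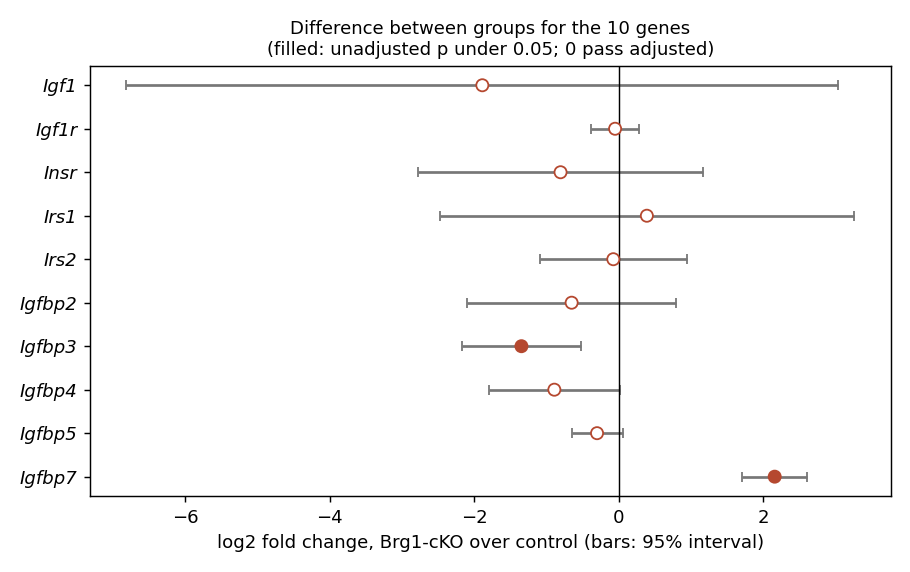
Log2 fold change of Brg1-cKO over control for the 10 genes with the 95% interval of edgeR's quasi-likelihood test, filled where the unadjusted p was under 0.05. The interval excludes 0 for Igfbp7 (1.71 to 2.61) and Igfbp3 (-2.17 to -0.52) and is widest for Igf1.

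Igf1 encodes the circulating and locally made growth factor IGF-I. It lies on the plus strand of chromosome 10 (87858265 to 87937042). It was counted with 4 and 192 reads in the Brg1-cKO libraries, or 0.280 and 17.9 CPM, against 1193 and 1304 reads in control, or 33.3 and 33.8 CPM. Both Brg1-cKO values lay below both controls, and Brg1-cKO replicate 1 held almost none. On the log2 scale the change was -1.89 (SE 1.76, edgeR adjusted p = 0.680), with a 95% interval from -6.82 to 3.04. Without Brg1-cKO replicate 1 it was -0.93, and without replicate 2 it was -6.91. Igf1 is made by stromal and other mesenchymal cells in many organs, and 10 of 12 stromal markers had a lower fitted level in Brg1-cKO, 5 of them with an unadjusted p under 0.05 and Ren1 at 0 counts in both libraries. In sorted bulk cells, fewer cells of a type and less RNA per cell cannot be told apart, and the part of the stromal markers in this value was not tested. Macrophages also make Igf1, and 9 of 10 immune markers had a lower fitted level in Brg1-cKO. Of these, 8 had groups that did not overlap, 1 had an unadjusted p under 0.05, and C1qa was at 0 counts in both Brg1-cKO libraries. Over all tested genes, 34.5% were lower without overlap and 12.9% were lower with such a p. In both Brg1-cKO libraries, 1527 of the 18172 tested genes were at 0 counts. Adgre1, the immune marker with a higher fitted level, was at 0 and 29.9 CPM in Brg1-cKO, compared with 6.37 and 9.21 CPM in control. Csf1r was at 25.6 and 0 CPM in Brg1-cKO, compared with 36.8 and 39.1 CPM in control. On these markers the Brg1-cKO libraries thus differed in opposite directions. The part of the immune markers was not tested either.

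Igf1r encodes the main signaling receptor for both IGFs. It lies on the plus strand of chromosome 7 (67952827 to 68233668). It was at 303 and 272 CPM in Brg1-cKO, compared with 306 and 289 CPM in control. The groups overlapped and the libraries of each group lay close together. Its log2 fold change was -0.05 (SE 0.12, edgeR adjusted p = 0.893). Its 95% interval, from -0.38 to 0.28, was the narrowest of the 10 genes. The sign of so small a value turned with another scaling, at 0.01 with RLE size factors.

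Insr encodes the insulin receptor, which also forms hybrids with IGF1R. It lies on the minus strand of chromosome 8 (3122061 to 3279617). It was at 18.7 and 71.9 CPM in Brg1-cKO, compared with 82.8 and 75.2 CPM in control. Brg1-cKO replicate 2 lay just below the controls and replicate 1 far below them. Fitted by edgeR, the log2 fold change was -0.80 (SE 0.71, edgeR adjusted p = 0.660, 95% interval -2.78 to 1.17). It was -2.10 without Brg1-cKO replicate 2 and -0.16 without replicate 1. Per kilobase of merged exons, Igf1r exceeded Insr by 13.2 and 3.10 times in the Brg1-cKO libraries and by 3.02 and 3.14 times in the controls, so Brg1-cKO replicate 1 alone stood apart on this ratio.

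The adaptors Irs1 and Irs2 dock signaling enzymes to the activated receptors. Irs1 lies on chromosome 1 from 82233101 to 82291416 and Irs2 on chromosome 8 from 10984681 to 11008458, both on the minus strand. Irs1 was at 68.3 and 8.69 CPM in Brg1-cKO, compared with 29.1 and 29.7 CPM in control. One Brg1-cKO library thus lay above both controls and the other below them. Its log2 fold change was 0.39 (SE 1.02, edgeR adjusted p = 0.899, 95% interval -2.48 to 3.26), and it was 1.20 without Brg1-cKO replicate 2 and -1.79 without replicate 1. Irs2 was at 288 and 148 CPM in Brg1-cKO, compared with 239 and 218 CPM in control, again on either side of the controls. Its log2 fold change was -0.07 (SE 0.36, edgeR adjusted p = 0.948, 95% interval -1.09 to 0.94). It was 0.31 without Brg1-cKO replicate 2 and -0.66 without replicate 1. Both adaptors overlap exons of an antisense gene, Irs1 by 2822 bp with Gm9747 and Irs2 by 162 bp with 9530052E02Rik. Gm9747 had 0 counts in all 4 libraries. Whether reads were counted by strand was not stated in the sources used, so it is not known which reads in the shared parts were counted.

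The binding protein genes lay in pairs on some chromosomes. Igfbp2 (72824503 to 72852474, plus strand) and Igfbp5 (72857932 to 72874884, minus strand) face each other on chromosome 1. Igfbp3 lies on chromosome 11 from 7206086 to 7213923 on the minus strand and faces Igfbp1, from 7197782 to 7202546 on the plus strand. Igfbp4 lies farther along chromosome 11, from 99041244 to 99054392 on the plus strand. Igfbp7 lies on chromosome 5 from 77349240 to 77408041 on the minus strand. Positions are on mm10 as GENCODE release M21 gives them, and all 10 genes are protein-coding. Their identifiers in the count tables were ENSMUSG00000020053 (Igf1), ENSMUSG00000005533 (Igf1r), ENSMUSG00000005534 (Insr), ENSMUSG00000055980 (Irs1), ENSMUSG00000038894 (Irs2), ENSMUSG00000039323 (Igfbp2), ENSMUSG00000020427 (Igfbp3), ENSMUSG00000017493 (Igfbp4), ENSMUSG00000026185 (Igfbp5) and ENSMUSG00000036256 (Igfbp7).

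The 250 bases before the RefSeq start (GRCm38.p6) are shown for Igfbp7, Igfbp3 and Igfbp4, the 3 members with the smallest p. They are written 5′ to 3′ on the strand of the gene, with motif matches on either strand in capitals. The first motif searched was the GC box, spelled GGGCGG, a site of Sp1 family factors. The second was the TATA box, spelled TATAAA, which positions the transcription start. The third was the core site of FoxO factors, spelled TGTTTAC, which act below Akt. The last was the E-box, spelled CACGTG, a site of basic helix-loop-helix factors. No matches overlapped in the windows shown. They come from chr5:77408046-77408295 (minus strand), chr11:7213924-7214173 (minus strand) and chr11:99040994-99041243 (plus strand).
Igfbp7: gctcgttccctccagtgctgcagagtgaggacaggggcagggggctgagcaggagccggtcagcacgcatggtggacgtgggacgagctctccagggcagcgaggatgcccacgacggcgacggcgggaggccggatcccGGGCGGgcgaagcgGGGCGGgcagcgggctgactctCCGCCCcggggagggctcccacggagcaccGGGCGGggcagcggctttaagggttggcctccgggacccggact
Igfbp3: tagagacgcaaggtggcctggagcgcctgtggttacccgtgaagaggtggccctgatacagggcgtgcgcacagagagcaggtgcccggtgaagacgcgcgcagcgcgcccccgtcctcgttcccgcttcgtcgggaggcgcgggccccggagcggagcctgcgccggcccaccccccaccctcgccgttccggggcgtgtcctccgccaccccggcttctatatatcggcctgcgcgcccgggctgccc
Igfbp4: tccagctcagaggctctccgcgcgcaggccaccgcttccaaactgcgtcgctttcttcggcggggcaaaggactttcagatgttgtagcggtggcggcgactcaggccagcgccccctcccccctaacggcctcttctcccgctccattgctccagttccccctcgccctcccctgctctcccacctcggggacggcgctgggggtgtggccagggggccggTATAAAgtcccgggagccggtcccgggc
The Igfbp7 window held 4 GC boxes and the Igfbp4 window 1 TATA box, which began at position -28 from the start. The Igfbp3 window held none of these motifs. Over 32851 RefSeq promoter windows of the same length, 32.7% held a GC box, 12.4% a TATA box, 3.17% a FoxO motif and 6.02% an E-box. All 3 windows were rich in CpG, with 26 CpG in that of Igfbp7, 32 in that of Igfbp3 and 22 in that of Igfbp4, where the median over all windows was 6. These matches describe the sequence, and no binding was measured.

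Igfbp2 encodes a binding protein with higher affinity for IGF-II that is abundant in fetal tissues. It was at 58.7 and 23.5 CPM in Brg1-cKO, compared with 67.2 and 61.9 CPM in control. Both Brg1-cKO libraries were lower, replicate 2 by much more. Its fitted log2 change was -0.65 (SE 0.52, edgeR adjusted p = 0.626, 95% interval -2.10 to 0.80), and it was -0.16 without Brg1-cKO replicate 2 and -1.48 without replicate 1.

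Igfbp3 encodes the main carrier of IGFs in blood, which endothelial cells of many organs also make. It was at 19.3 and 18.5 CPM in Brg1-cKO, compared with 49.1 and 46.9 CPM in control. The libraries of each group lay close together and the groups were well apart. The resulting log2 change was -1.35 (SE 0.30, unadjusted p = 0.0105, adjusted p = 0.166 in edgeR's quasi-likelihood test), or 2.54 times lower. An alternative that kept every library lost the unadjusted call. With a separate variance for each group in limma-voom, the unadjusted p was 0.0876 and the adjusted p = 0.375. There the members with an unadjusted p under 0.05 were Igfbp7 and Igfbp4, beside 900 higher and 2461 lower of 18172 tested genes. The log2 fold change was -1.40 without Brg1-cKO replicate 1 and -1.34 without replicate 2. Without control replicate 1 it was -1.35, and without control replicate 2 it was -1.41. These fits rest on 1 library in a group, and their calls are not counted here. In edgeR's likelihood ratio test, which called 13.6% of all tested genes, the adjusted p of Igfbp3 was 0.0460. That was the lowest among the alternatives that kept every library, and the highest was 0.766, with the replicate block in edgeR's quasi-likelihood test. All 10 endothelial markers had a lower fitted level in Brg1-cKO, 5 of them with an unadjusted p under 0.05 and none at 0 counts. Over all tested genes, 12.9% were lower with such a p. Pecam1, an adhesion protein of endothelium, was at 36.9 and 20.4 CPM in Brg1-cKO, compared with 82.4 and 92.5 CPM in control, and Cdh5, its cadherin, at 74.1 and 32.1 CPM against 163 and 153 CPM. The part of these markers in the Igfbp3 value was not tested.

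Igfbp4 encodes a binding protein that inhibits IGF action until the protease PAPP-A cleaves it. It was at 378 and 207 CPM in Brg1-cKO, compared with 532 and 552 CPM in control. Both Brg1-cKO libraries were lower, replicate 2 the more so. Its log2 fold change was -0.89 (SE 0.32, unadjusted p = 0.0528, adjusted p = 0.282 in edgeR's quasi-likelihood test), with a 95% interval from -1.80 to 0.02. It was -0.54 without Brg1-cKO replicate 2 and -1.42 without replicate 1.

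Igfbp5 encodes the most conserved binding protein, which also binds extracellular matrix. It was at 488 and 408 CPM in Brg1-cKO, compared with 540.3 and 561 CPM in control. Both Brg1-cKO libraries were lower, by a small margin. The fitted log2 change was -0.30 (SE 0.13, edgeR adjusted p = 0.349, 95% interval -0.65 to 0.06).

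Igfbp7 encodes a secreted protein that binds IGFs with low affinity and also interacts with matrix and cell surface proteins. It was counted with 3664 and 3247 reads in the Brg1-cKO libraries, against 2214 and 2435 reads in the much deeper controls. In CPM this was 256 and 303 in Brg1-cKO against 61.9 and 63.1 in control. The distance between the groups was far larger than the spread within either. The log2 fold change was 2.16 (SE 0.16, unadjusted p = 1.67e-04, adjusted p = 0.166 in edgeR's quasi-likelihood test). It ranged from 2.01 to 2.25 over 14 alternatives. In those that kept every library, the adjusted p of Igfbp7 ran from 4.07e-20 to 0.169, and the other scalings and filters did not call it. Fits with a library left out rest on 1 library in a group, and their calls are not counted here. DESeq2 called it where it called 5.43% of all tested genes, as did edgeR's likelihood ratio test (13.6%), limma-voom (1.80%) and limma-voom with a variance per group (0.737%). These tools used the same counts and are no separate support.

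Podocyte markers were higher alongside Igfbp7. All 12 had a higher fitted level in Brg1-cKO, 11 of them with an unadjusted p under 0.05 and none at 0 counts. Over all tested genes, 5.44% were higher with such a p. Tcf21, the podocyte marker without such a p, was also counted among the stromal markers. It was at 47.0 and 157 CPM in Brg1-cKO, compared with 85.0 and 89.2 CPM in control, so the groups overlapped. Nphs1, the slit diaphragm protein nephrin, was at 152 and 198 CPM in Brg1-cKO, compared with 21.8 and 22.1 CPM in control, and Podxl, the podocyte sialomucin, at 1755 and 1359 CPM against 279 and 282 CPM. Markers of the early nephron also had a higher fitted level in 8 of 10, with a summed level of 2555 and 2335 CPM in Brg1-cKO, compared with 1404 and 1410.3 CPM in control. Tubule markers were split, with 4 higher and 4 lower fitted levels among the 8 tested. Slc12a1 was at 42.2 and 86.9 CPM in Brg1-cKO, compared with 4.25 and 4.82 CPM in control, and Lrp2 at 48.6 and 40.3 CPM against 67.2 and 61.8 CPM. Igfbp7 is known as a product of endothelium as well, whose markers were lower in Brg1-cKO. The part of these markers in the Igfbp7 value was not tested. Exons of Igfbp7 and of Polr2b, an RNA polymerase II subunit gene on the opposite strand, share 85 bp. Polr2b was at 127 and 213 CPM in Brg1-cKO, compared with 161 and 153 CPM in control. One Brg1-cKO library thus lay below the controls and one above them.

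Levels of different genes were compared per kilobase of merged exons. In Brg1-cKO the order of the mean level was Igfbp7 at 231 CPM per kb, Igfbp5 at 74.6, Igfbp4 at 66.3, Irs2 at 34.4, Igfbp2 at 22.3, Igf1r at 17.1, Igfbp3 at 6.04, Irs1 at 4.21, Insr at 3.30 and Igf1 at 0.920 CPM per kb. In control the order was Igfbp4 at 123 CPM per kb, Igfbp5 at 91.7, Igfbp7 at 51.7, Irs2 at 36.2, Igfbp2 at 35.0, Igf1r at 17.7, Igfbp3 at 15.3, Insr at 5.75, Igf1 at 3.39 and Irs1 at 3.21 CPM per kb. Igfbp7 was thus the third of the 10 genes in control and the first in Brg1-cKO. In Brg1-cKO the values of Igfbp5 and Igfbp4, of Irs2 and Igfbp2, of Igfbp2 and Igf1r, and of the last 4 genes overlapped between neighbors, and in control those of Irs2 and Igfbp2 did. With the longest transcript in place of merged exons, 6 of the 10 genes kept their place in Brg1-cKO and 8 in control, and Igfbp7 kept its place in both.

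The 5 binding protein genes together were at 417 and 384 CPM per kb in Brg1-cKO, compared with 314 and 319 CPM per kb in control. Igfbp7 made up 50.8% and 65.3% of this sum in Brg1-cKO against 16.3% and 16.4% in control. Igfbp4 made up 20.6% and 12.2% in Brg1-cKO against 38.4% and 39.2% in control, and Igfbp5 19.5% and 17.7% against 28.7% and 29.3%. Without Igfbp7 the sum was 205 and 133 CPM per kb in Brg1-cKO, compared with 263 and 267 CPM per kb in control. The composition of binding protein transcripts was therefore close to identical in the controls, and differed in both Brg1-cKO libraries.

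**Figure D3:**
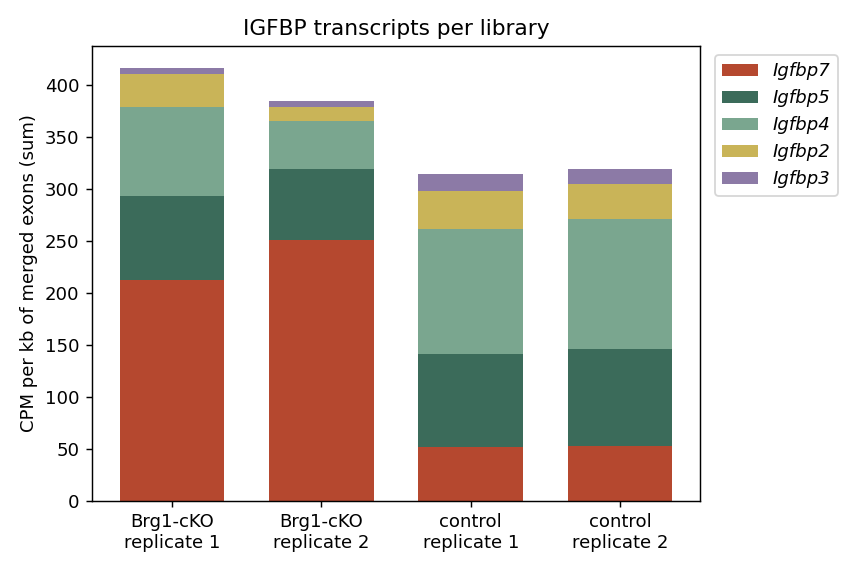
Summed level of the 5 IGFBP genes in CPM per kb of merged exons, in each Brg1-cKO library (left) and each control library (right), stacked by gene. Igfbp7 fills 50.8% and 65.3% of the Brg1-cKO bars against 16.3% and 16.4% of the control bars.

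The 2 Brg1-cKO libraries differed from each other far more than the controls did. Over the 10274 tested genes averaging at least 10 CPM, the median fold between libraries was 1.59 in Brg1-cKO and 1.07 in control, computed on CPM with 0.5 added. The members fell at both ends of this range. The distance between the Brg1-cKO libraries was larger for Igf1 than for 98.2% of these genes, for Irs1 than for 94.0%, for Insr than for 86.3% and for Igfbp2 than for 74.4%. It was larger for Igfbp3 than for only 5.21% of them, for Igf1r than for 13.2%, for Igfbp7 than for 20.6% and for Igfbp5 than for 21.9%. Igf1 and Insr were the lower ones in replicate 1, while Irs1, Irs2, Igfbp2 and Igfbp4 were lower in replicate 2. The members that differed most between the Brg1-cKO libraries did so in opposite directions.

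**Figure D4:**
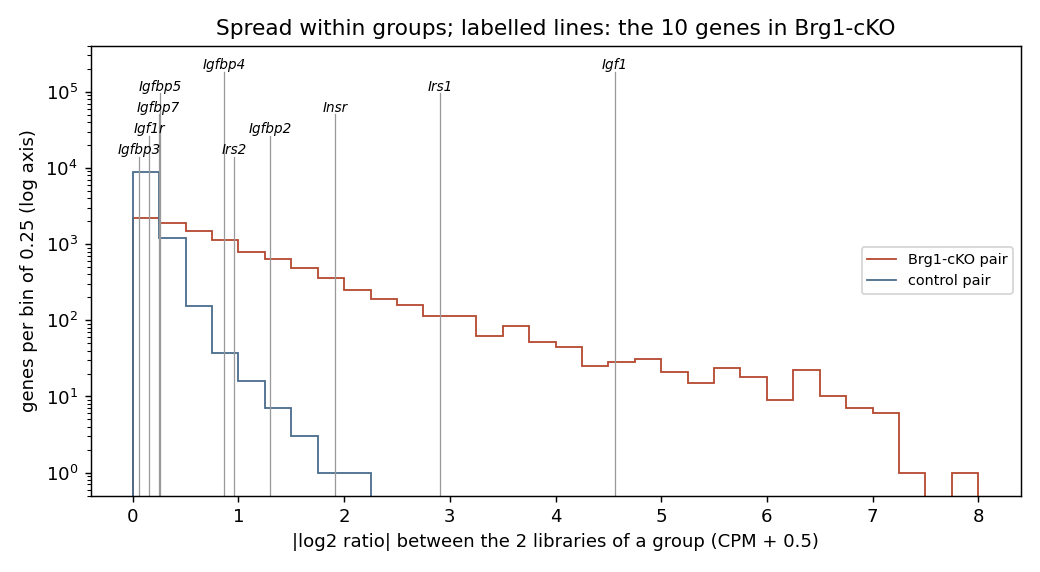
Number of genes (log axis) by the absolute log2 ratio between the 2 libraries of a group, for the Brg1-cKO pair and the control pair over 10274 genes, with the 10 genes marked at their Brg1-cKO value. Igfbp3, Igf1r, Igfbp7 and Igfbp5 lie in the low part of the Brg1-cKO distribution, and Igf1 and Irs1 in its tail.

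Genes with the most similar pattern were sought for the 3 members with the largest absolute fold change, by the root mean square difference of centred log2 CPM over the 4 libraries, among 9842 named genes. For Igfbp7 the closest were C1galt1c1 (0.05), Ankrd33b (0.06) and Dab1 (0.06). Dab1, an adaptor of reelin signaling, was at 72.8 and 79.7 CPM in Brg1-cKO, compared with 15.5 and 15.8 CPM in control. Among the closest to Igf1 were Pole4 (0.07) and Wnt11 (0.12). Wnt11, a signal of the ureteric tip, had 0 reads in Brg1-cKO replicate 1 and was at 11.1 CPM in replicate 2, against 23.0 and 18.5 CPM in control. For Igfbp3 they were Meis1 (0.05), Nhs (0.05) and Gapdh (0.05). Meis1, a stromal homeobox factor, was at 66.6 and 69.9 CPM in Brg1-cKO, compared with 178 and 169 CPM in control. Gapdh has many near-identical copies in the genome, so its counts are uncertain. Within 0.25 on this measure lay 28 genes for Igfbp7, 9 for Igf1 and 206 for Igfbp3.

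Of 42 other genes of the pathway, 40 passed the filter on low counts, and 0 passed the adjusted threshold. At an unadjusted p under 0.05, 1 was higher and 4 were lower, beside 5.44% and 12.9% of all tested genes. With only genes of at least 10 CPM in 2 libraries, 3 in all had such a p, beside 1422 of the 10390 genes tested in that fit. Groups did not overlap for 5 higher and 16 lower genes, beside the 17.5% and 34.5% of all tested genes. Their median log2 fold change was 0.00. Igf2, the main fetal ligand, was at 1909.9 and 2121 CPM in Brg1-cKO, compared with 2609.6 and 2505 CPM in control. Its fitted log2 difference was -0.34 (SE 0.08, unadjusted p = 0.0123). It stood slightly lower in both Brg1-cKO libraries. Per kilobase of merged exons, Igf2 was at 334 and 371 CPM per kb in Brg1-cKO and 456 and 438 CPM per kb in control, above every member in each library. Igf2r, which clears IGF-II from the cell surface, was at 517 and 376 CPM in Brg1-cKO, compared with 445 and 438 CPM in control, so the groups overlapped. Igf2os, an antisense transcript, shares 98 bp with exons of Igf2.

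Grb10, an imprinted adaptor that inhibits both receptors, was at 1255 and 1278 CPM in Brg1-cKO, compared with 1616 and 1584 CPM in control. The groups were apart and each was tight, with a log2 fold change of -0.34 (SE 0.06, unadjusted p = 0.00553).

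Scarce genes made up the rest of the lower ones. Igfbp1, a binding protein of liver that insulin represses, had 0 reads in both Brg1-cKO libraries and was at 0.727 and 0.622 CPM in control. It was at least 5.62-fold lower in Brg1-cKO, with 3 counts over the group as the floor. Htra1, a secreted protease that cleaves IGFBPs, had 0 reads in both Brg1-cKO libraries against 1.20 and 1.79 CPM in control, or at least 12.5-fold lower. Both bounds allow for counting error only. Of the 18172 tested genes, 1527 were at 0 counts in both Brg1-cKO libraries and 52 in both controls. With adjustment over all genes, edgeR gave 0.166 as the adjusted p of each of the 4 lower genes, Igf2, Grb10, Igfbp1 and Htra1. Pappa2, a protease that cleaves Igfbp3 and Igfbp5, was at 4.61 and 40.8 CPM in Brg1-cKO, compared with 4.78 and 3.19 CPM in control, so only replicate 2 lay above the controls. Igf2bp1, which binds Igf2 mRNA, was at 414 and 306 CPM in Brg1-cKO, compared with 294 and 292 CPM in control, higher in both libraries, with a fitted log2 change of 0.30 (SE 0.18, edgeR adjusted p = 0.527).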

How the data were processed

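Libraries were stranded, random-primed and read from 1 end, per the labels' protocols. The deposited files hold whole-number counts of reads per Ensembl gene, 1 file a library. Per the submitters' processing notes, TopHat, DESeq2 and the mm10 build were used. For the counting tool, its strand setting and its annotation, nothing is stated, so they are not given in the sources used here. Of 52636 identifiers, 52403 matched a symbol and 52489 a position in GENCODE M21. Reads given to no gene (65.5% and 72.1% of the total in the Brg1-cKO libraries and 32.4% and 31.8% in the controls) were left out.

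All genes were fitted with edgeR 4.0.16 in R 4.3.3 (TMM, default filter with minimum count 10, robust dispersions, quasi-likelihood F test, group as the only term), and p-values were adjusted over all of them. CPM uses TMM-scaled library sizes. Standard errors are the fold change over the root of F, and 95% intervals use the test's degrees of freedom. A count of 0 allows up to 3 counts, 0.0789 to 0.275 CPM before TMM scaling, for counting error only.

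The code was tested on simulated counts. Alternatives used limma 3.58.1, DESeq2 1.42.0, other scalings and filters, a replicate block and each library left out. Named were all members, pathway genes with an unadjusted p under 0.05, 4 others of the pathway, and for 3 members their 3 closest genes. A few items that this rule names are not reported here. The members and lists were chosen with earlier results of these data known.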

Additional observations from a re-analysis of the deposited data

Results flagged for a closer look

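Uniquely aligned reads outside every counted gene take no part in the comparisons, and they made up 53.4% of uniquely aligned reads in Brg1-cKO on average against 15.9% in control.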

How the results depend on the processing

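Of 140 values from 10 members under 14 alternatives, 108 kept both direction and side of the threshold, 24 kept direction and newly passed it, and 8 changed sign. Of the values that changed sign, Irs1 without Brg1-cKO replicate 1 and Irs2 without Brg1-cKO replicate 2 also passed the threshold. Genes past an adjusted p of 0.05 numbered 0 in edgeR's quasi-likelihood test (3328 at an unadjusted p under 0.05), 987 under DESeq2, 2471 under the likelihood ratio test of edgeR, 327 under limma-voom, 134 with a variance per group, 156 with the replicate block and 16 to 13262 with a library left out. Members past it numbered 1, 2, 1, 1 and 2 under these 5 fits in that order. The shares of all tested genes past it were 5.43%, 13.6%, 1.80%, 0.737% and 0.858%. Fits with a library left out rest on 1 library in a group, so their counts of members are not given here. The high end of their range over all genes came from leaving out a Brg1-cKO library, where the other was assumed to vary like the controls. With the replicate block, 5 members had an unadjusted p under 0.05, and 2 to 9 did with a library left out. Pathway genes with such a p numbered 3 at 10 CPM in 2 libraries and 0 to 31 with a library left out: 0 without control replicate 1, 1 without control replicate 2, 31 without Brg1-cKO replicate 1 and 29 without replicate 2. Same-numbered libraries did not deviate together (r = -0.02 over 18172 genes). With 2 libraries per group and controls that differed little, this value cannot show whether the numbers pair them. The block called Igfbp7 and Igfbp4. The sign turned for Igf1r with RLE size factors (0.00602) and DESeq2 (0.00618), where leaving out a library gave -0.15 to 0.00662. It turned for Irs1 with limma-voom (-0.0647), with a variance per group (-0.0586) and with the replicate block (-0.26), where leaving out a library gave -1.79 to 1.20. For Irs2 leaving out a library gave -0.66 to 0.31. The cause was not tested.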
